A study of Mus musculus with 6 samples.

Results

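The 10 genes described here are the FOS, JUN, EGR and IER genes Fos, Fosb, Fosl1, Fosl2, Jun, Junb, Jund, Egr1, Ier2 and Ier3, which encode subunits of the AP-1 transcription factor and other immediate early proteins. They were chosen by their symbols, with earlier results of these data known, and each matched 1 of the 22116 rows with a gene name in the table of read counts. The counts come from RNA–seq of 4T1, a mouse mammary carcinoma line used as a model of TNBC. One group of 3 libraries was treated with the vehicle DMSO and the other group of 3 with 10 µM P3FI-90, an inhibitor of the histone demethylase KDM3B, both for 24 h. All 6 libraries are from this 1 cell line grown in serum, with no further genetic change named. The study's methods state in general terms that experiments were repeated independently, and the labels do not say whether the 3 libraries of a group came from separate cultures. If they did not, the p-values measure only the spread between these libraries, which may be technical.

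AP-1 is a dimer of basic leucine zipper proteins, in which a JUN protein pairs with a FOS protein, with another JUN protein or with a relative from the ATF and MAF families. Immediate early genes are switched on within minutes of a growth factor or stress signal, mostly by the ERK, JNK and p38 kinases acting on serum response factor, ELK and CREB proteins already present in the cell. Their mRNAs are short lived, and many are destroyed through AU-rich elements. In mammary carcinoma cells, AP-1 is known for driving invasion and proliferation genes, with FOSL1 as its best known subunit in triple–negative tumors.

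Each library held 31327094 to 37395732 counts in rows with a gene name. After a filter on low counts 12288 genes were left, and edgeR's quasi-likelihood test called 9749 of them (79.3%) at a Benjamini-Hochberg adjusted p below 0.05, so a call alone sets no gene apart here. All 6 epithelial markers checked were detected, and their summed level was 111900 to 117900 normalized counts in DMSO and 55220 to 57830 after P3FI-90, with all 6 lower. Of 6 leukocyte markers, 2 passed the filter, and the list summed to 368 to 434 normalized counts in DMSO and 279 to 405 after P3FI-90. Cd68 held most of this sum, at 382 ± 45.2 in DMSO and 330 ± 55.2 after P3FI-90 (SD, n = 3), and was not called. Cd3e had no more than 2 counts in any library. The 3 fibroblast markers, of which 2 passed, summed to 1411 to 1438 normalized counts in DMSO and 972 to 1065 after P3FI-90. Pdgfra held most of that, at 1355 ± 17.6 and 958 ± 56.5. The 3 endothelial markers, of which 1 passed, summed to between 0 and 13.3 and between 21.6 and 26.5, with Cdh5 and Kdr at 0 in every DMSO library. Pecam1, the one that passed, was called higher on at most 27 counts per library (log2 fold change 2.10, SE 0.85, edgeR adjusted p = 0.0355). The part of these markers in the results below was not tested. Kdm3b itself, whose enzyme the compound inhibits, had 2851.5 ± 67.4 normalized counts in DMSO (SD, n = 3) and a log2 fold change of 0.13 (SE 0.043, edgeR adjusted p = 0.0169).

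Promoter windows from RefSeq on GRCm38.p6 were at hand for 7 of the 10 genes, and not for Fosl1, Ier2 and Egr1. The 250 bases before the start of 4 of the 7 are printed here. Fos and Jun were chosen as the founding members of AP-1, Junb as a JUN gene with matches to the same motifs, and Ier3 as the gene with a window whose level fell most. Capitals mark matches, on either strand, to TATAAA (the TATA box), TGACG (the core of the cyclic AMP response element), TGACATCA (an AP-1 and ATF type site) or CCAAT.
Fos, chr12:85473640-85473889, plus strand: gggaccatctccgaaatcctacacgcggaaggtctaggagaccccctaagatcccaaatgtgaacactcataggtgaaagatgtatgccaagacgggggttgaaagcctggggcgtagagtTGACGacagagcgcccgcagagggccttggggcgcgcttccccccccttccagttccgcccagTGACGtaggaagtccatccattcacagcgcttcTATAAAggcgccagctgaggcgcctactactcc
Jun, chr4:95052223-95052472, minus strand: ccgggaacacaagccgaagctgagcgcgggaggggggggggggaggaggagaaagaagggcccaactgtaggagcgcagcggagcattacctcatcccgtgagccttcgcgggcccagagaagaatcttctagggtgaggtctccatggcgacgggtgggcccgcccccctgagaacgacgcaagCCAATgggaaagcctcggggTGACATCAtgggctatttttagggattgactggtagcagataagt
Junb, chr8:84978749-84978998, minus strand: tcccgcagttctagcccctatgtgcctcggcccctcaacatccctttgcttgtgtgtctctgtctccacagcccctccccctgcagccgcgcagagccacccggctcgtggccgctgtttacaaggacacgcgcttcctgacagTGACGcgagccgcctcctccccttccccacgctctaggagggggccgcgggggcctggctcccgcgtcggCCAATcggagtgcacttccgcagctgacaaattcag
Ier3, chr17:35821463-35821712, plus strand: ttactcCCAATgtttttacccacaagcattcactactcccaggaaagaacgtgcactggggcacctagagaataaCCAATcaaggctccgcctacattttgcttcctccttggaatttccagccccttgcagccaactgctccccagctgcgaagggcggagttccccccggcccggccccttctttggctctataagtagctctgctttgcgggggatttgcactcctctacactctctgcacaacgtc

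In these windows Fos had TATAAA from 33 to 28 bases before its start and TGACG at 129 to 125 and at 66 to 62 bases. Jun had TGACATCA from 45 to 38 bases and CCAAT from 65 to 61 bases before its start. Junb had TGACG from 106 to 102 and CCAAT from 36 to 32 bases before the start, and Ier3 had CCAAT at 244 to 240 and at 175 to 171 bases. Over the 32851 promoter windows of the RefSeq table, TATAAA was present in 12.4%, TGACG in 17.8%, TGACATCA in 2.93% and CCAAT in 33.8%. The EGR type motif GCGNGGGCG, present in 4.70% of all windows, occurred in 2 of the 7 genes, Fosb and Fosl2. The AP-1 site TGAGTCA (4.46% of all windows), the full response element TGACGTCA (1.55%), which contains TGACG, and the CArG box of serum response factor (1.47%) occurred in none of the 7 windows. The windows are short, and the serum response element for which Fos is known lies further upstream.

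P3FI-90 treatment lowered the mRNA of most of these genes, and the IER and EGR genes fell furthest. With the same test and threshold, 7 of the 10 genes were lower (39.4% of all genes tested were), 1 was higher (39.9%) and 2 were not called. A log2 fold change below −1 was seen for 4 of the 10, Ier2, Egr1, Ier3 and Jund, against 10.6% of all genes tested. The median log2 fold change of the 10 was −0.43, against 0.013 over all genes tested. When libraries were scaled by total counts, which raised the log2 fold changes of all genes by a median of 0.21, 5 of the 10 were lower and 3 higher, with a median of −0.21. With a trend of transcript length and GC content removed from each library, 7 were lower and 0 higher, with a median of −0.37. The 3 P3FI-90 libraries lay entirely above or below the 3 DMSO libraries for 9 of the 10 genes, where 81.2% of all genes did so, and Fos was the exception. They lay below for 8 of the 10, and for 40.2% of all genes.

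**Figure D1:**
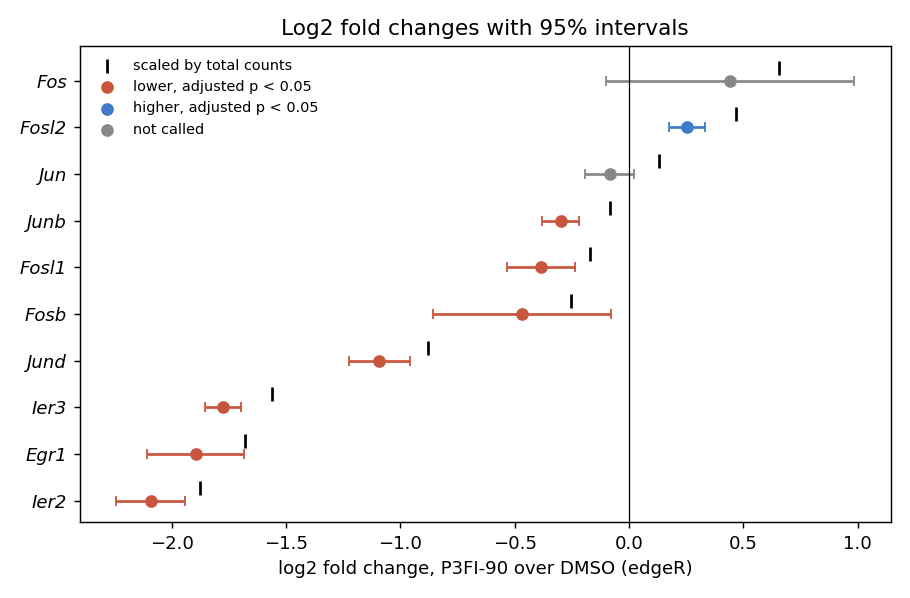
Log2 fold change of each gene, P3FI-90 over DMSO (x axis, log2 scale), with the 95% interval from edgeR, and black ticks for the same value when libraries were scaled by total counts. Ier2, Egr1, Ier3 and Jund lie below −0.8 on both scalings, while Jun lies at −0.085 with the first and at 0.13 with the second.

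Egr1 (ENSMUSG00000038418), the zinc finger transcription factor that is among the first genes induced by ERK signaling, stood at 729.6, 807 and 778 normalized counts in the DMSO libraries and at 221, 191 and 211 after P3FI-90. The groups were far apart, and the lowest DMSO library was more than 3 times the highest treated one. The mean went from 771 ± 39.0 to 207 ± 15.4 (SD, n = 3), for a log2 difference of −1.89 (SE 0.099, edgeR adjusted p = 3.52e-10), or 3.72-fold lower. Ier2 (ENSMUSG00000053560), a short nuclear protein induced by growth factors, stood at 2439, 2265 and 2716 normalized counts in DMSO and at 576, 569 and 598 after P3FI-90. Its log2 fold change of −2.09 (SE 0.070, edgeR adjusted p = 3.29e-12) was the largest fall of the 10, and 1.38% of all genes tested had a lower value. Ier3 (ENSMUSG00000003541), known as IEX-1, encodes a regulator of cell survival downstream of NF-κB and ERK. It had 12059, 11755 and 11977 normalized counts in DMSO and 3543, 3349 and 3559.9 after P3FI-90. The libraries of each group lay close together, and the log2 fold change was −1.78 (SE 0.036, edgeR adjusted p = 3.47e-14), or 3.42-fold lower. Over the 6 fits that each left out 1 library, log2 fold changes stayed between −1.94 and −1.84 for Egr1, −2.15 and −2.02 for Ier2, and −1.80 and −1.75 for Ier3.

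The JUN family supplies the subunit that every AP-1 dimer with a FOS protein needs, and its 3 genes moved by different amounts. Jund (ENSMUSG00000071076), the subunit that is expressed steadily in most cells and is known to restrain proliferation, had 11821, 9734 and 11822 normalized counts in DMSO and 5030.4, 5398.5 and 5241 after P3FI-90. The second DMSO library was the lowest of its group but still well above every treated library. The mean went from 11125 ± 1205 to 5223 ± 185 (SD, n = 3), for a log2 difference of −1.09 (SE 0.062, edgeR adjusted p = 9.21e-10). Junb (ENSMUSG00000052837), a JUN protein that activates transcription less strongly than c-JUN, had 6394, 5935 and 6245 normalized counts in DMSO and 4988, 5135 and 4974.5 after P3FI-90. These groups did not overlap, but the log2 fold change was only −0.30 (SE 0.038, edgeR adjusted p = 4.60e-06). With total counts it was −0.085 (adjusted p = 0.0509). Jun (ENSMUSG00000052684), which encodes the main transactivating subunit c-JUN, had 1909.6, 1824.6 and 1884 normalized counts in DMSO and 1823.7, 1730 and 1743 after P3FI-90. The nearest libraries of the groups were almost level, and Jun was not called, with a log2 fold change of −0.085 (95% interval −0.19 to 0.020, edgeR adjusted p = 0.125). Its direction depended on the scaling, at 0.13 (adjusted p = 0.0263) with total counts and −0.12 (adjusted p = 0.0335) with upper quartiles.

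Among the FOS genes, which cannot form dimers with each other and bind DNA only beside a JUN protein, the abundant Fosl1 and Fosl2 moved in opposite directions. Fosl1 (ENSMUSG00000024912), encoding FRA-1, had 1266, 1128.5 and 1327 normalized counts in DMSO and 939, 955 and 956 after P3FI-90. Every treated library was below every DMSO library, and the log2 fold change was −0.39 (SE 0.069, edgeR adjusted p = 1.35e-04). Fosl2 (ENSMUSG00000029135), encoding FRA-2, had 3614, 3615.5 and 3644.5 normalized counts in DMSO and 4358, 4341 and 4249 after P3FI-90. It was the single gene of the 10 that was called higher, with a log2 fold change of 0.25 (SE 0.037, edgeR adjusted p = 1.97e-05). With a trend of transcript length and GC content removed from each library its log2 fold change was −0.026 (adjusted p = 0.499), and its transcript of 6537 bases is the longest of the 10.

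Fosb (ENSMUSG00000003545), whose splice forms include a truncated protein known from neurons, was low, at 181, 184 and 157 normalized counts in DMSO and 105, 125 and 148 after P3FI-90. The groups came close to each other, and the log2 fold change was −0.47 (SE 0.18, edgeR adjusted p = 0.0291). Its call was lost without the first (adjusted p = 0.0776) or second DMSO library (0.0691), without the first (0.113) or second P3FI-90 library (0.0589), and under scaling by total counts (log2 fold change −0.25, adjusted p = 0.213). Fos (ENSMUSG00000021250), encoding c-FOS, had 89.1, 53.0 and 105 normalized counts in DMSO and 103, 111.5 and 123 after P3FI-90. It rested on 44 to 126 counts per library, its groups overlapped, and its log2 fold change of 0.44 was not called (95% interval −0.099 to 0.98, edgeR adjusted p = 0.121). Without the second DMSO library it was 0.21 (adjusted p = 0.411), without the third 0.65 (adjusted p = 0.0493), and under scaling by total counts 0.66 (adjusted p = 0.0273).

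**Figure D2:**
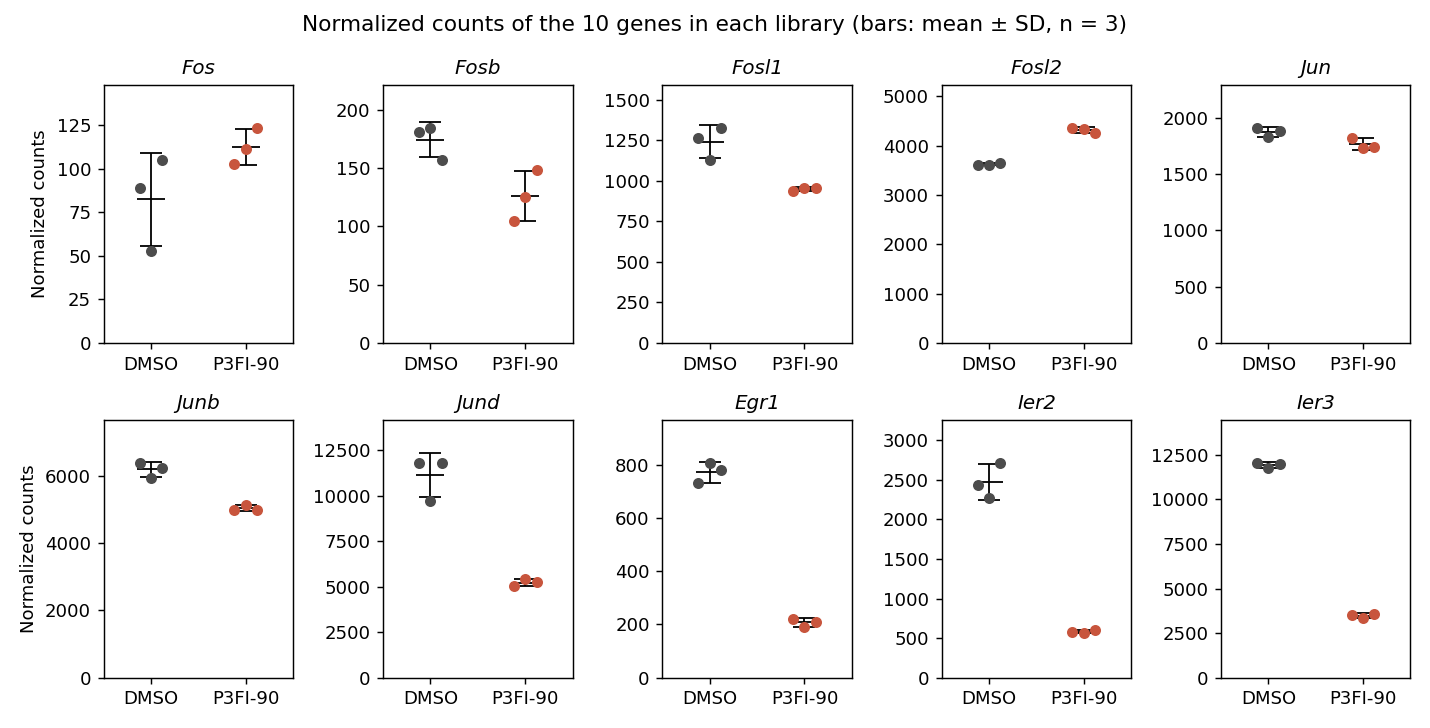
Normalized counts (y axis, linear, a scale of its own for each gene) of the 10 genes in each of the 3 DMSO and 3 P3FI-90 libraries, with points for libraries and bars for the mean ± SD (n = 3). The treated points of Egr1 (191 to 221), Ier2 (569 to 598), Ier3 (3349 to 3559.9) and Jund (5030.4 to 5398.5) sit far below their DMSO points, and those of Fos overlap with DMSO.

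Levels were compared between genes per kb of transcript, using the length of the longest coding transcript in GENCODE M21. In DMSO, Ier3 stood highest, at 10548 ± 139 normalized counts per kb (SD, n = 3), followed by Jund at 6670 ± 723 (a level above 97.2% of the genes tested), Junb at 3422.5 ± 129 and Ier2 at 1625 ± 149. A middle group held Fosl1 at 665 ± 54.5, Jun at 587 ± 13.7 and Fosl2 at 554 ± 2.65 normalized counts per kb, and Egr1 followed at 172 ± 8.70. Fosb (46.1 ± 3.92) and Fos (39.1 ± 12.7) closed the order, and only this last pair of neighbours overlapped across libraries. The first 4 places thus held IER and JUN mRNAs, and every FOS mRNA came after them. After P3FI-90, Jund (3131.5 ± 111) and Ier3 (3080.4 ± 103) overlapped at the top, with Junb next at 2782 ± 49.2. Fosl2 (660.2 ± 8.99), Jun (554 ± 15.9), Fosl1 (509.6 ± 5.27) and Ier2 (382 ± 9.70) then followed without overlap between neighbours. Ier2 thus dropped behind Fosl1, Jun and Fosl2, and Egr1 (46.2 ± 3.43) to the lowest levels, where it overlapped with Fos (53.4 ± 4.88) and lay above Fosb (33.3 ± 5.70).

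Summed per kb, the JUN genes were lower in every treated library and the FOS genes overlapped between the groups, while the make-up of both families shifted. The JUN sum was 11220, 9689 and 11130 normalized counts per kb in DMSO and 6345, 6618 and 6438 after P3FI-90, a ratio of 0.606 with no overlap (two-sided exact permutation p = 0.1, and 3 libraries against 3 cannot give a smaller one). The FOS sum was 1322, 1232 and 1361 in DMSO and 1247, 1262 and 1261 after P3FI-90, with overlapping groups and a ratio of 0.963 (exact permutation test, two-sided, p = 0.4). Its direction turned to a log2 ratio of 0.10 without the length correction and 0.16 under total counts, from −0.055.

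Within the FOS family, Fosl1 made up 51.4%, 49.1% and 52.3% of the sum in DMSO and 40.4%, 40.6% and 40.7% after P3FI-90. Fosl2 went the other way, from 41.8%, 44.9% and 41.0% to 53.5%, 52.6% and 51.6%. On this scale Fosl2 stood below Fosl1 in DMSO and above it after P3FI-90, an order that rests on the length correction, since in normalized counts Fosl2 was above Fosl1 in all 6 libraries. It also rests on the fall of Fosl1, whose exons overlap those of Ccdc85b on the opposite strand, and on the rise of Fosl2, which was lost with the length and GC trend removed. The share of Fos had a mean of 2.97% in DMSO and 4.25% after treatment, and that of Fosb 3.54% and 2.65%. Within the JUN family, Jund fell from 62.4% ± 1.86 to 48.4% ± 0.767 of the sum (SD, n = 3), while Junb went from 32.1% ± 1.52 to 43.0% ± 0.389 and Jun from 5.52% ± 0.337 to 8.57% ± 0.413. Jund, the largest part of the JUN sum, shares sequence with an opposite-strand gene, as given below, so the JUN sum and shares carry that uncertainty. For 6 of the 7 shares the groups did not overlap (exact permutation test, two-sided, p = 0.1 for each and 0.117 adjusted over the 7), and for Fosb they did (p = 0.2).

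**Figure D3:**
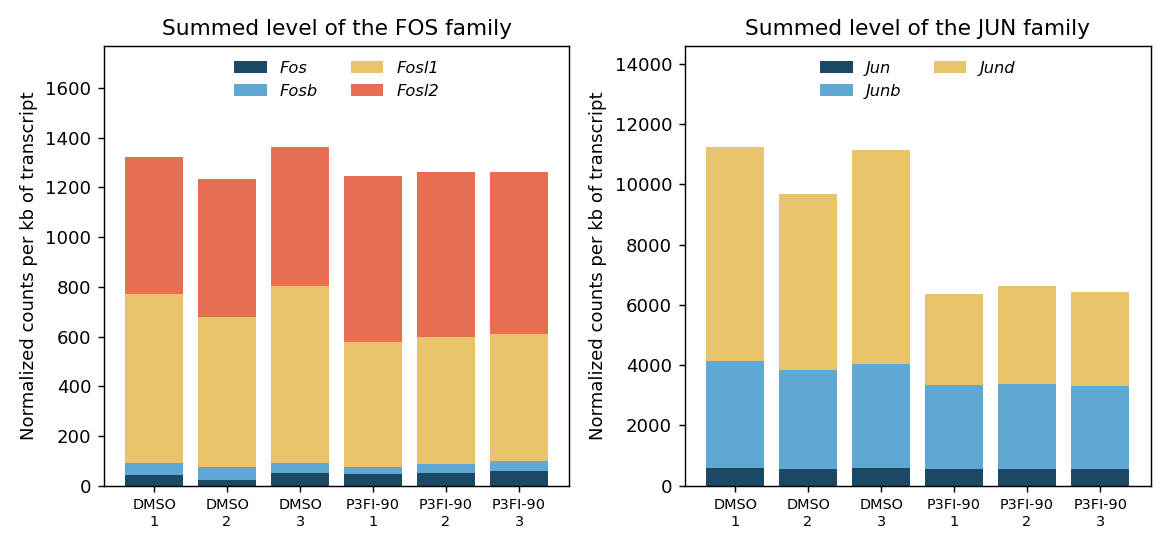
Stacked bars of the FOS genes (left) and JUN genes (right) in each library, in normalized counts per kb of transcript (y axes, from 0). The JUN bars go from between 9689 and 11220 in DMSO to between 6345 and 6618 after P3FI-90, mostly through the Jund segment, and the FOS bars stay between 1232 and 1361.

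Several of these genes share sequence or position with others, which bears on how their reads were assigned, since the strandedness of the counting is not given in the sources used here. The exons of Fosl1 overlap those of Ccdc85b on the opposite strand, and 58.9% of the 50-base windows of the Fosl1 transcript also occur there. Ccdc85b was itself lower, with a log2 fold change of −0.81 (SE 0.057), so the fall of Fosl1 is uncertain. For Jund 48.3% and for Jun 5.83% of the windows are shared with opposite-strand genes, Gm11175 and Junos, that are not rows of the table, so the value of Jund carries the same uncertainty. The exons of Junb overlap those of Prdx2 on the opposite strand, which had a log2 fold change of −1.33 (SE 0.030), but no window of the Junb transcript used here is shared. The other 6 genes shared no window with another gene.

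The 4 genes that fell furthest have few exons but transcripts of varied length. Their lengths were 1131 bases for Ier3, 1522 for Ier2, 1668 for Jund and 4484 for Egr1. Jun, Junb, Jund and Ier2 have a single exon, Egr1 and Ier3 have 2, and each of the 4 FOS genes has 4. The pentamer ATTTA, the core of AU-rich elements, occurred 5 times in the 3′ end after the coding part of Ier3 (613 bases) and 2 times in that of Egr1 (1216 bases). It occurred 1 time in that of Jund (533 bases) and 0 times in that of Ier2 (755 bases). Among the genes that were not called, Fos held 4 in 815 bases and Jun 4 in 1233 bases. Of the other genes called lower, Junb held 2 in 485 bases, Fosl1 1 in 638 and Fosb 1 in 2145. Fosl2, called higher, held 8 in 4653 bases. A relation of these counts to the fold changes was not tested.

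The nearest tested genes along the chromosome, taken from the order of genes in GENCODE M21, moved in either direction. Of 20, 7 were higher (39.9% of all genes tested were), 11 lower (39.4%) and 2 not called. The 20 include Ccdc85b and Prdx2, which overlap Fosl1 and Junb as described above. Neighbours are given here for the EGR and IER genes, and for Fos because one of its neighbours is a bZIP gene. Egr1 lies between Kdm3b, with the log2 fold change of 0.13 given above, and Etf1, with −0.31 (SE 0.036). Ier3 lies beside Flot1, which fell by 1.60 on the log2 scale (SE 0.060), and Ddr1, at 0.32 (SE 0.039). Ier2 lies between Cacna1a, at −2.58 (SE 0.25), and Nacc1, at −0.49 (SE 0.041). The neighbours of Fos were Tmed10, at −0.36 (SE 0.034), and Jdp2, at 1.15 (SE 0.052), which encodes an AP-1 repressor. All of these passed the edgeR threshold.

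The bZIP genes of the ATF, BATF, JDP and MAF families, whose products pair with or compete with FOS and JUN proteins, mostly rose. Of 14 genes, 12 were tested, and 10 were higher, 1 lower and 1 not called, with a median log2 fold change of 1.03 (1.25 under total counts). Over all genes tested, 39.9% were higher and 39.4% lower. Atf3, a stress-induced partner of JUN proteins, had 208.8 ± 34.9 normalized counts in DMSO (SD, n = 3) and 2616 ± 131 after P3FI-90. Its log2 fold change was 3.64 (SE 0.092, edgeR adjusted p = 2.22e-13). The small MAF genes, which encode leucine zipper proteins without an activation domain, rose together, by 1.99 (SE 0.049) for Maff, 1.66 (SE 0.061) for Mafk and 0.92 (SE 0.038) for Mafg on the log2 scale. The lower gene was Mafa (−1.41, SE 0.21), named after its value was seen, and Batf had 0 counts in every library.

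Other immediate early genes were split evenly. Of 32 genes, 31 were tested, with 13 higher (39.9% of all genes tested were), 13 lower (39.4%) and 5 not called. Their median was −0.31 on the log2 scale (14 higher, 12 lower and −0.097 under total counts). The 4 with the smallest p were all higher. Ppp1r15a, the GADD34 subunit of the phosphatase that reverses eIF2α phosphorylation, went from 341 ± 32.3 to 5947 ± 194 normalized counts (SD, n = 3), for a log2 difference of 4.12 (SE 0.064, edgeR adjusted p = 3.08e-15). Csrnp1, a nuclear protein induced by AXIN1, rose by 2.53 (SE 0.057), Klf10, a TGF-β-inducible Krüppel-like factor, by 1.87 (SE 0.040) and Gadd45b, which is induced by growth arrest and DNA damage, by 1.75 (SE 0.056) on the log2 scale.

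The paralogues of Egr1 and of the IER genes in this list are given here for their relation to the 10 genes. Egr3 had 72, 63 and 80 counts in the DMSO libraries and 20, 15 and 17 after P3FI-90, with a log2 fold change of −2.23 (SE 0.31, edgeR adjusted p = 1.14e-05). Egr2 had 55, 70 and 36 counts in DMSO and 16, 19 and 21 after P3FI-90, at −1.73 on the log2 scale (SE 0.39, edgeR adjusted p = 9.03e-04). Both were low, but no treated library reached a DMSO library, and Egr4 had 0 counts in all 6 libraries. Ier5l fell by 1.80 (SE 0.13) and Ier5 by 0.61 (SE 0.053) on the log2 scale, from 749.5 ± 100.2 and 1776 ± 39.1 normalized counts in DMSO to 215 ± 31.9 and 1167 ± 38.7. The tested EGR genes and the IER relatives were therefore all lower, and none of them changed sign under the alternative settings.

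The kinases and transcription factors upstream of immediate early genes showed no common direction. Of 29 tested, 10 were higher (39.9% of all genes tested were), 9 lower (39.4%) and 10 not called. Their median log2 fold change was 0.0057 (19 higher, 6 lower and 0.22 under total counts). It was −0.15, with 9 higher and 14 lower, when the length and GC trend was removed, and −0.033 with upper quartiles. Mapk3, which encodes the kinase ERK1, was lower, from 4477 ± 110 to 2152 ± 72.9 normalized counts (SD, n = 3), for a log2 difference of −1.06 (SE 0.044). Elk3, an ETS partner of serum response factor, fell by 0.71 (SE 0.039), and Rps6ka1, the ERK-activated kinase RSK1, by 0.67 (SE 0.045). Mef2a, a factor that drives Jun transcription in other cells, rose by 1.75 (SE 0.040) on the log2 scale. Each of these 4 passed the edgeR threshold.

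Another list held 12 genes that act on AP-1 proteins after they are made, by redox activation, as coactivators or through ubiquitin. All 12 were called, where 79.3% of all genes tested were, and 10 to 12 were called under the alternatives. In the main fit 9 were higher (39.9% of all genes tested were) and 3 lower (39.4%). The median of the 12 was 0.46 on the log2 scale (0.68 under total counts, and 7 higher, 3 lower and 0.19 with the length and GC trend removed). Apex1, which encodes the redox factor Ref-1 that keeps the DNA-binding cysteines of FOS and JUN reduced, had 4283 ± 364 normalized counts in DMSO (SD, n = 3) and 771 ± 29.6 after P3FI-90, for a log2 difference of −2.47 (SE 0.066). Of the candidates tested by RT-qPCR, Apex1 among them, the paper reports that only Shp1 fell after Kdm3b knockdown or P3FI-90. Ncoa1 and Ep300, coactivators that bind JUN or FOS proteins, rose by 1.77 (SE 0.058) and 0.99 (SE 0.043) on the log2 scale. Of 8 genes for proteins that bind AU-rich mRNAs, 2 were higher (39.9% of all genes tested were), 3 lower (39.4%) and 3 not called. Their median log2 fold change was −0.040 (4 higher, 2 lower and 0.17 under total counts, and 1 higher, 5 lower and −0.25 with the length and GC trend removed). Zfp36l2, which speeds the decay of such mRNAs, had 13237 ± 410 normalized counts in DMSO and 6441 ± 185 after P3FI-90, and fell by 1.04 (SE 0.036) on the log2 scale. Hnrnpd and Zfp36l1 were at −0.42 (SE 0.032) and −0.22 (SE 0.059) and Tial1 at 0.40 (SE 0.041).

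Genes known as AP-1 targets did not move one way. Of 20 tested, 8 were higher (39.9% of all genes tested were), 10 lower (39.4%) and 2 not called. Their median log2 fold change of −0.20 became 0.016 under total counts (9 higher and 10 lower) and −0.22 with the length and GC trend removed (8 higher and 11 lower). Spp1, the gene of the matrix protein osteopontin, fell from 27075 ± 895 to 1654 ± 43.8 normalized counts (SD, n = 3), for a log2 difference of −4.03 (SE 0.039, edgeR adjusted p = 5.44e-17). Ccnd1, the cyclin D1 gene through which AP-1 drives entry into the cell cycle, fell by 1.76 (SE 0.042). Hmox1, a stress-induced heme oxygenase gene, rose by 2.08 (SE 0.060), and the angiogenic factor gene Vegfa by 1.69 (SE 0.052) on the log2 scale. Krt18 belongs both to this list and to the epithelial markers.

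**Figure D4:**
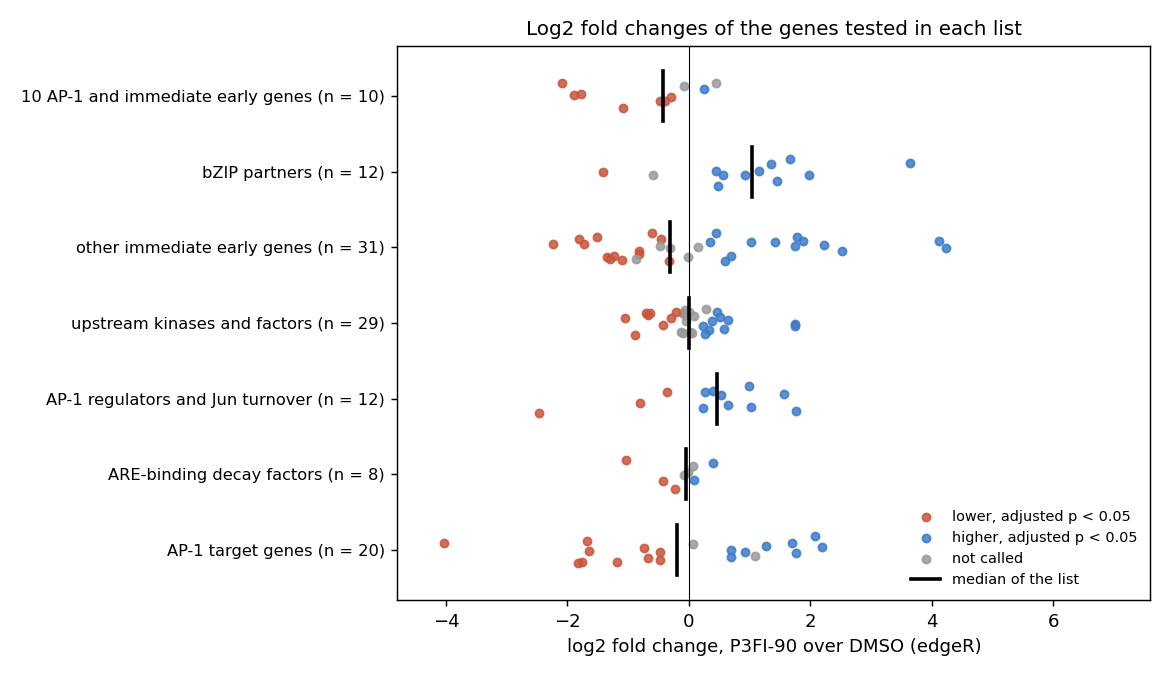
Log2 fold change (x axis) of every tested gene in the 10 AP-1 and immediate early genes and in 6 lists around them, colored by call at an adjusted p under 0.05, with a black bar for the median. The bZIP partners lie mostly to the right of 0 (median 1.03), the other immediate early genes spread to both sides, and the 10 genes have a median of −0.43.

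The genes whose log2 CPM over the 6 libraries followed Ier2, the gene with the largest change, most closely were Ubqln4, Gart, Patz1, Wrap73 and Tbl3, each with a Pearson r of 1.00. These points are 2 groups of 3 libraries, so that r mostly reflects the difference between the groups, and 1392 genes had an r over 0.99.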

How the data were processed

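The authors deposited read counts per gene for 6 libraries as whole numbers without normalization. The submitters' processing notes name CASAVA, HISAT2, StringTie and the build GRCm39, and the annotation, counting tool and strandedness are not given in the sources used here. Of 22401 rows, the 285 assembled transcripts without a gene name (0.483% to 0.556% of the counts of a library) were not used. More genes had 2 counts (278 to 389) than 1 count (81 to 131) in each library, and whether both mates of a pair were counted was not tested. Counts were filtered with filterByExpr, normalized by TMM and compared by the quasi-likelihood test of edgeR 4.0.16 in R 4.3.3, and p-values were adjusted by Benjamini-Hochberg over all 12288. Counts divided by each effective library size and multiplied by the mean one are given as normalized counts. Family sums and shares were compared by exact permutation tests (scipy 1.17.1). Transcript lengths and overlaps came from GENCODE M21 (GRCm38) and promoters from RefSeq (GRCm38.p6), both joined by gene and not by position. On simulated counts with the mean levels and depths of these libraries, the edgeR step recovered 191 of 200 altered genes among 12176. Of the genes it called, 4.50% were unaltered. The simulation altered few genes, in directions drawn at random and with a common dispersion, whereas 79.3% of the genes tested were called here. It therefore does not measure the rate of false calls or the effect of scaling in this comparison. No library was a copy of another, as chi-square per gene was 5.44 to 8.43 for pairs of the same treatment and 351 to 394 otherwise.

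The 10 genes and the 6 lists, written from general knowledge, were chosen with earlier results of these data known. From each list the 4 genes with the smallest p are named, except 1 that is not reported here, together with the paralogues of Egr1 and of the IER genes, the genes nearest to or overlapping the 10, and Mafa and Batf, picked once their values were known. Alternatives were other scalings (DESeq2 size factors, total counts, upper quartiles), other filters, DESeq2 1.42.0, limma 3.58.1 (voom, or log2(CPM + 1)), the replicate number as a block, each library left out, the assembled transcripts kept, and, chosen after seeing the data, removal of a length and GC trend by natural splines with 4 degrees of freedom.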

Additional observations from a re-analysis of the deposited data

How the results depend on the processing

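Of 378 values of 27 results under the alternatives, 359 were alike. For a tested value this means the same direction and side of the threshold. For a number of called genes it means within 1.5 times of the count, whatever its split into higher and lower. For a share or family sum it means a shift of less than the spread between libraries, in the same direction. Part of this tally could hardly differ. With 79.3% of all genes tested called, a count of called genes had little room to move, and shares within a family do not depend on the scaling of libraries. Egr1, Ier2, Ier3, Jund and Fosl1 kept their direction and call under all 17 alternatives, with Fosl1 between −0.45 and −0.17. Under total counts the log2 fold change of Jun turned to 0.13, that of Fos was called at 0.66, and the calls of Fosb (−0.25) and Junb (−0.085) were lost. This scaling raised all genes by a median of 0.21 and gave 6179 higher and 3641 lower genes in place of 4908 and 4841. It also took the log2 ratio of the FOS sum to 0.16 and that of the JUN sum to −0.51 from −0.72. Jun was called with upper quartiles (−0.12). Fosl2 turned to −0.026 with the length and GC trend removed, where 4290 genes were higher and 5384 lower. Without the length correction the FOS sum turned to 0.10, and the changes in share were 0.45 percentage points for Fos, −6.94 for Fosl1, 7.61 for Fosl2, 4.91 for Jun and 9.53 for Junb. With 1 library left out in turn, Fos ranged from 0.21 (without the second DMSO library) to 0.65 and Fosb from −0.60 to −0.35, and between 7 and 9 of the 10 genes were called. The replicate numbers were not treated as pairs, since the deviations of equally numbered libraries correlated by −0.021, 0.015 and 0.0049. With the replicate number as a block, 9524 genes were called. Among the 91 called list genes, Creb1 and Mapk8 changed sign with the length and GC trend removed. Fos had the fewest counts of the 10 genes, 44 to 126 per library, and the widest interval of its log2 fold change.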
